A study of Rattus norvegicus with 12 samples.

Results

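The genes described here encode the ligands, receptors, intracellular transducers, antagonists, matrix partners and best known target genes of the bone morphogenetic protein (BMP) and transforming growth factor beta (TGF-beta) pathways. They were taken by gene symbol from a list of pathway genes, and 40 of the 19730 genes of the ovary transcriptome were members. The rule itself used no expression values, but the list was chosen with earlier results of these data known. The comparison asks which parts of these pathways differed between the ovaries of control rats, of rats with letrozole-induced polycystic ovary syndrome (PCOS), and of PCOS rats later given mogroside V (MV), a sweet triterpene glycoside of monk fruit. Every rat was a wild type female Sprague Dawley of 15 weeks. The control group was untreated and ate standard food, the PCOS group received letrozole, an aromatase inhibitor, at 1 mg/kg/day by mouth together with a high-fat diet for 30 days, and rats of the PCOS-MV group were induced likewise and were then given MV by gavage, 600 mg/kg/day over 30 further days. Drug and diet were given together and cannot be told apart, rats were taken into the model by their vaginal smears, and the cycle stage of each rat at ovary collection is not given in the labels. By the schedule in the paper, all rats were killed after the MV period, so that PCOS ovaries were collected about 30 days after letrozole ended. Whether the PCOS group received the vehicle of MV in that time, and what it ate then, is not given in the sources used here. RNA of the ovary was sequenced from 4 rats per group, 1 library per rat, and expression was given as FPKM, the fragment count of a gene scaled by its transcript length and by the depth of the library. The lowest values fell in steps which, read as single fragments, put the depth at about 30200000 to 36900000 fragments per library.

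BMP and TGF-beta ligands are secreted dimers that bring together type I and type II receptor kinases. BMP receptors phosphorylate SMAD1, SMAD5 and SMAD9, while TGF-beta and activin receptors phosphorylate SMAD2 and SMAD3, and both sets enter the nucleus with SMAD4 to switch target genes such as the inhibitors of DNA binding (ID genes). In the follicle, these factors carry signals between the oocyte, granulosa and theca cells, and BMPs are known to restrain the gonadotrophin-driven production of progesterone.

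In the PCOS group, 6 of the 35 members that could be tested were higher than in the control group (Bmp6, Tgfb3, Bmpr1b, Tgfbr3, Ltbp2 and Ltbp4) and 5 were lower (Tgfb1, Tgfbr2, Acvr2a, Acvrl1 and Id2). A member was called higher or lower at a Benjamini-Hochberg adjusted p under 0.05 in limma, fitted on log2(FPKM + 1) of all 13430 genes whose mean reached 1 FPKM. All differences below are on this log2 scale, where changes of weakly expressed genes appear smaller than they are. The members called were 31.4% of those tested, beside a background of 27.4% of all genes tested (11.9% higher and 15.6% lower), so the share itself was close to that of the transcriptome. After MV, 5 members were higher than in the PCOS group (Tgfb1, Tgfbr2, Acvrl1, Id2 and Id4) and 7 were lower (Bmp2, Bmp6, Tgfb3, Bmpr1b, Tgfbr3, Ltbp2 and Ltbp4), which was 34.3% of the members beside 25.7% of all genes (14.3% higher and 11.4% lower). The libraries of the PCOS group did not overlap with those of the control group for 11 members (31.4%, beside 31.0% of all genes) and with those of the PCOS-MV group for 12 (34.3%, beside 30.0%). No member was called between the PCOS-MV and control groups. These comparisons share the PCOS libraries, so that a chance deviation of the PCOS group would enter both with opposite signs, and each is therefore given with its own values. In whole ovary RNA, fewer cells of a type and less RNA per cell cannot be told apart.

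**Figure D1:**
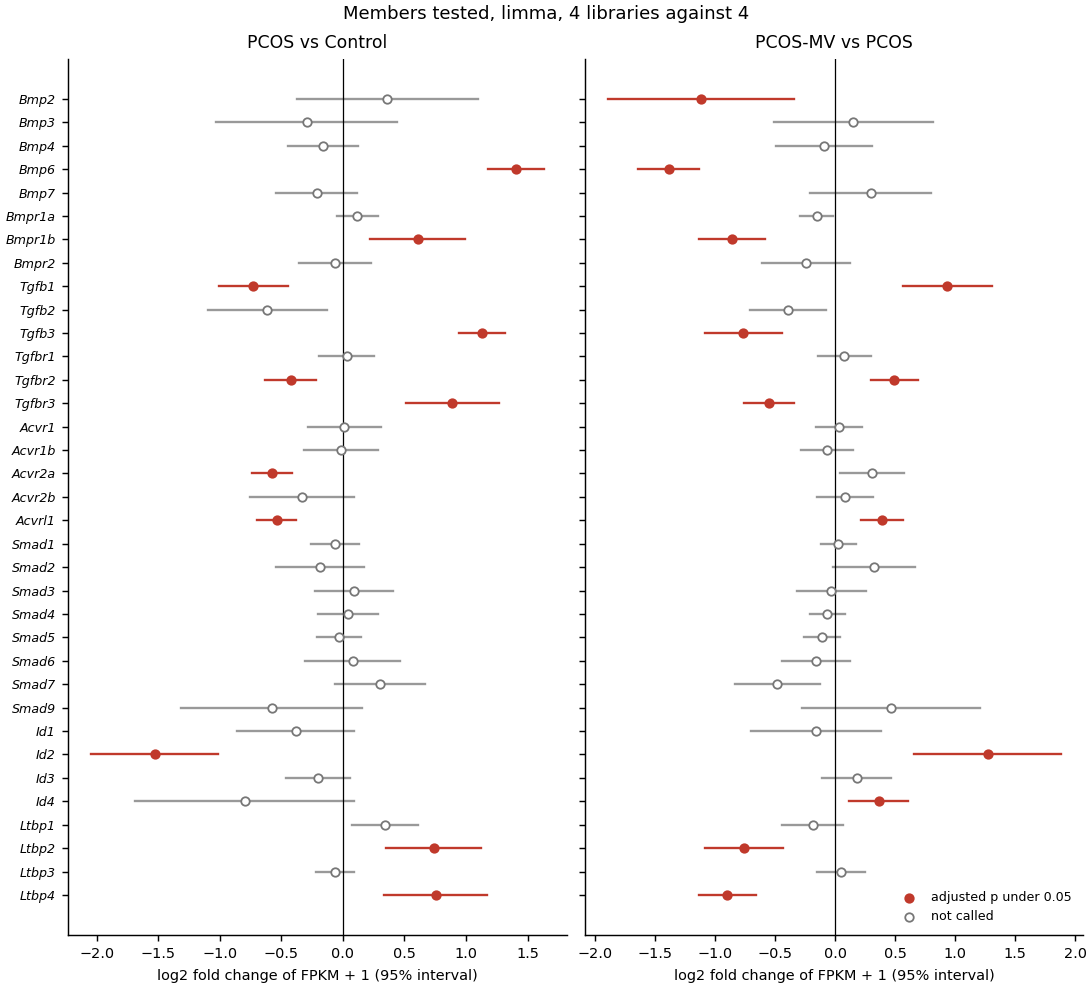
Log2 fold change of FPKM + 1 with its 95% interval for the 35 members tested, for PCOS against control on the left and PCOS-MV against PCOS on the right. Filled red points mark adjusted p under 0.05 (11 members on the left, 12 on the right), and open points mark members that did not pass.

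Promoter sequences of 6 members are given first, as a description of the sequences. Whether they bear on the differences between members was not tested. The ID genes are shown since Id2 was called in both comparisons with the PCOS group while Id1 and Id3 were not called in either. Tgfbr3 and Ltbp2 are shown since they were the called members whose promoter held a letter match to a SMAD-binding motif. Each line gives the 150 bases that precede the RefSeq transcription start in the GRCr8 assembly, 5′ to 3′ on the gene's strand, with matches in capitals.
Id1, chr3:161671414-161671563, plus strand: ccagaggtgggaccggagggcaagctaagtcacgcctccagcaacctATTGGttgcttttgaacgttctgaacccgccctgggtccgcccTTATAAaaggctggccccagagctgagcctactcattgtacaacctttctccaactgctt
Id2, chr6:47470996-47471145, minus strand: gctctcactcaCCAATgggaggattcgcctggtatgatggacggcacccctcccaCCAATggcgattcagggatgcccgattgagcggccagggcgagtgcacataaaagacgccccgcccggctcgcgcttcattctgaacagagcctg
Id3, chr5:153656141-153656290, plus strand: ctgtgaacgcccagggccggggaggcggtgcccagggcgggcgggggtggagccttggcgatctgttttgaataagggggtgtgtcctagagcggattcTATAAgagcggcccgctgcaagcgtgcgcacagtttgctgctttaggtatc
Id4, chr17:16598294-16598443, minus strand: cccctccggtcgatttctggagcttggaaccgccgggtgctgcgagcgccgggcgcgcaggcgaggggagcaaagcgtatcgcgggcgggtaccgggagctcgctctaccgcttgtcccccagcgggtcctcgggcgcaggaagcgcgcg
Tgfbr3, chr14:2634144-2634293, plus strand: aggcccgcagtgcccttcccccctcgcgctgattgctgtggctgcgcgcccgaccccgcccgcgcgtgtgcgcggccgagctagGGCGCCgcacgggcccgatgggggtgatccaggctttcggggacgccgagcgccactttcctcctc
Ltbp2, chr6:110257299-110257448, minus strand: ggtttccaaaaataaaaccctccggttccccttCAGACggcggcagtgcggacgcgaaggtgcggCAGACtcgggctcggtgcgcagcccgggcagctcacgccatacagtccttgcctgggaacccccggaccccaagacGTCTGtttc
The letters searched on both strands of the 250 bases before the start were GGCGCC, a GC-rich element bound by SMAD1 and SMAD5, CAGAC, a SMAD-binding element of SMAD3 and SMAD4, and the general promoter boxes CCAAT and TATAA. RefSeq gave 35 promoters for 34 of the 40 members. GGCGCC was found in 10 of these (28.6%), beside 8.69% of all 33469 rat promoters, and CAGAC in 5 (14.3%), beside 42.9% of all. None of the 4 ID promoters held GGCGCC or CAGAC in this window, Id1 and Id2 held CCAAT, and Id1 and Id3 held TATAA. A letter match describes the sequence and is not evidence of binding, and the absence of one says only that these letters do not occur in these bases.

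Among the BMP ligands, Bmp6 was the member with the largest rise in the PCOS group. Bmp6 (gene ENSRNOG00000013717, chromosome 17, 26955142 to 27112820, minus strand, as the table gives it, its genome build not being named) encodes a BMP made by granulosa cells and the oocyte. It measured 6.54, 7.82, 7.66 and 9.14 FPKM in control replicates 1 to 4, 24.4, 22.1, 20.8 and 21.5 in the PCOS replicates and 6.67, 9.74, 8.19 and 7.14 in the PCOS-MV replicates. Every PCOS library lay above every library of the other groups, and the control and PCOS-MV libraries overlapped. The mean rose from 7.79 ± 1.07 to 22.2 ± 1.56 FPKM (SD, n = 4), 2.85-fold, with a log2 fold change of 1.41 ± 0.10 (SE, adjusted p = 3.54e-05). In the PCOS-MV group it was 7.93 ± 1.36 FPKM, and the log2 fold change from the PCOS group was -1.39 ± 0.11 (SE, adjusted p = 0.000142). The exact permutation test of each comparison gave p = 0.0286, the smallest that 4 libraries against 4 can give.

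Bmp2 (gene ENSRNOG00000021276, chromosome 3, 126335863 to 126346318, plus strand), a BMP expressed in granulosa cells, varied widely within groups. It measured 5.23, 9.18, 11.8 and 18.5 FPKM in the control libraries, 18.6, 10.9, 11.3 and 13.8 in the PCOS libraries and 4.5, 3.82, 13.1 and 4.16 in the PCOS-MV libraries. The control and PCOS libraries overlapped widely, and PCOS-MV replicate 3 stood within the PCOS range while the other 3 libraries of its group stood below it. Bmp2 was lower after MV than in the PCOS group, with a log2 fold change of -1.12 ± 0.34 (SE, adjusted p = 0.0418), and was not called between PCOS and control (0.36 ± 0.32 (SE, adjusted p = 0.444)). The call rested on a narrow margin, as leaving out any single library other than PCOS-MV replicate 3 ended it (PCOS replicates 1 to 4 and PCOS-MV replicates 1, 2 and 4, adjusted p 0.0653 to 0.0994), and without PCOS-MV replicate 3 the log2 fold change was -1.48 with an adjusted p of 0.00116. The exact permutation p was 0.0857.

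The other BMP ligands were lower in level and were not called. Bmp7, a BMP of theca cells, measured 3.75 to 6.68 FPKM in controls, 3.65 to 4.27 in PCOS and 3.04 to 8.31 in PCOS-MV libraries. Bmp4, made by theca and stroma, ranged over 2.89 to 4.27, 2.75 to 3.85 and 2.17 to 4.48 FPKM in the same order, and Bmp3, an atypical ligand that opposes other BMPs, over 1.19 to 3.55, 0.677 to 2.95 and 1.22 to 2.62 FPKM. The 3 groups overlapped for each of these ligands. Bmp5 was near the limit of the measurement, at no more than 0.0644 FPKM in any library, which corresponds to about 0.5 to 7.4 fragments, and was not tested.

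FPKM is scaled by transcript length, so shares of the ligands can be formed within a library. Such shares depend on the transcript lengths used, which may not be right for every gene. Bmp6 made up 23.6% to 28.9% of the summed FPKM of the 6 BMP ligands in the control libraries, 45.5% to 54.3% in the PCOS libraries and 26.3% to 36.1% in the PCOS-MV libraries. The same kind of shift appeared among the TGF-beta ligands, where Tgfb3 made up 25.6% to 33.7%, 61.1% to 65.1% and 24.5% to 44.0% of the summed FPKM of 3 ligands. These shares were computed after the single genes had been seen and are given as a description, without a test.

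**Figure D2:**
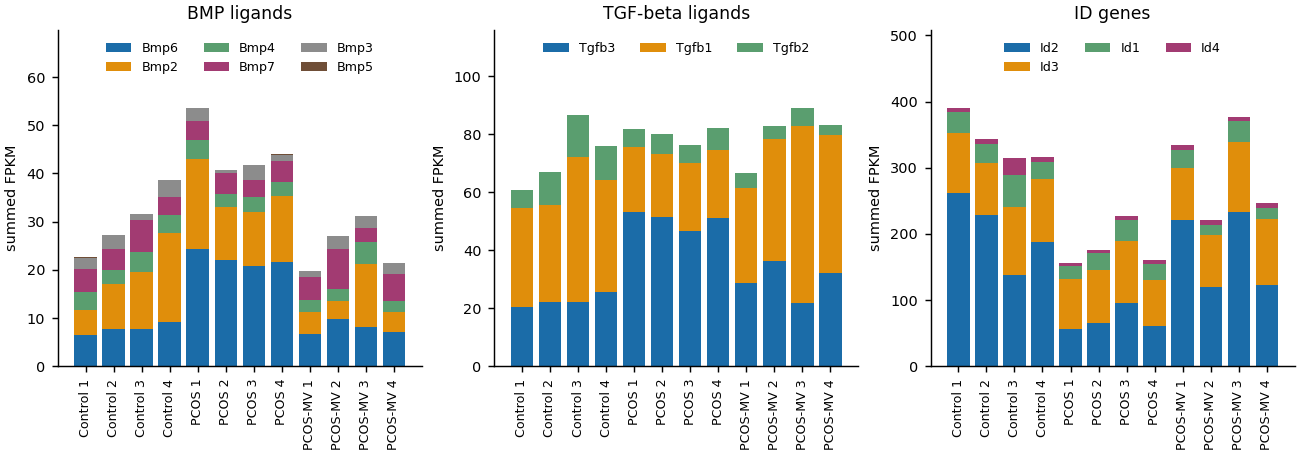
Summed FPKM of the 6 BMP ligands (left), the 3 TGF-beta ligands (middle) and the 4 ID genes (right) in each of the 12 libraries, as stacked bars from 0 with 1 colour per gene. Bmp6 and Tgfb3 form the largest blocks in the PCOS libraries, at 45.5% to 54.3% and 61.1% to 65.1%, and the Id2 block there falls to 36.0% to 42.4% of the ID sum.

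The TGF-beta ligands moved in opposite directions. Tgfb3 (gene ENSRNOG00000009867, chromosome 6, 109913757 to 109935533, minus strand) measured 20.4, 22.2, 22.2 and 25.4 FPKM in the control libraries, 53.2, 51.4, 46.5 and 50.9 in the PCOS libraries and 28.7, 36.4, 21.8 and 32.3 in the PCOS-MV libraries. All PCOS values were above all others, and PCOS-MV replicate 3 was the lowest of its group and within the control range. The rise in the PCOS group was 2.24-fold in mean FPKM, with a log2 fold change of 1.13 ± 0.082 (SE, adjusted p = 3.8e-05). The PCOS-MV group was lower than the PCOS group by a log2 fold change of -0.76 ± 0.14 (SE, adjusted p = 0.0059).

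Tgfb1 (gene ENSRNOG00000020652, chromosome 1, 82480195 to 82497199, plus strand), the most widely expressed TGF-beta, went the other way. It measured 34, 33.5, 49.9 and 38.7 FPKM in the control libraries, 22.4, 21.7, 23.5 and 23.7 in the PCOS libraries and 32.7, 41.8, 61.1 and 47.3 in the PCOS-MV libraries. The PCOS libraries were the lowest of all 12 and lay close together, while PCOS-MV replicate 3 was the highest. Its log2 fold change was -0.73 ± 0.12 (SE, adjusted p = 0.00293) for PCOS against control and 0.94 ± 0.16 (SE, adjusted p = 0.00452) for PCOS-MV against PCOS, where the mean was 2-fold higher. As a result, the ratio of Tgfb3 to Tgfb1 FPKM was 0.445 to 0.662 in the control libraries, 1.98 to 2.37 in the PCOS libraries and 0.357 to 0.878 in the PCOS-MV libraries.

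Tgfb2, the third TGF-beta, measured 6.22, 11.4, 14.5 and 11.9 FPKM in the control libraries, 6.04, 6.83, 6.08 and 7.38 in the PCOS libraries and 5.27, 4.46, 6.12 and 3.58 in the PCOS-MV libraries. It was the highest in control replicates 2 to 4, and the PCOS-MV libraries were all below the lowest control library. None of its comparisons passed, and the log2 fold change was -0.61 ± 0.21 (SE, adjusted p = 0.0631) for PCOS against control, -0.39 ± 0.14 (SE, adjusted p = 0.0733) for PCOS-MV against PCOS and -1.0 ± 0.24 (SE, adjusted p = 0.459) for PCOS-MV against control. Tgfb2 was called lower in PCOS than in control without control replicate 1 (log2 fold change -0.84, adjusted p = 0.00139) and lower in PCOS-MV than in PCOS without PCOS-MV replicate 3 (log2 fold change -0.49, adjusted p = 0.0267).

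**Figure D3:**
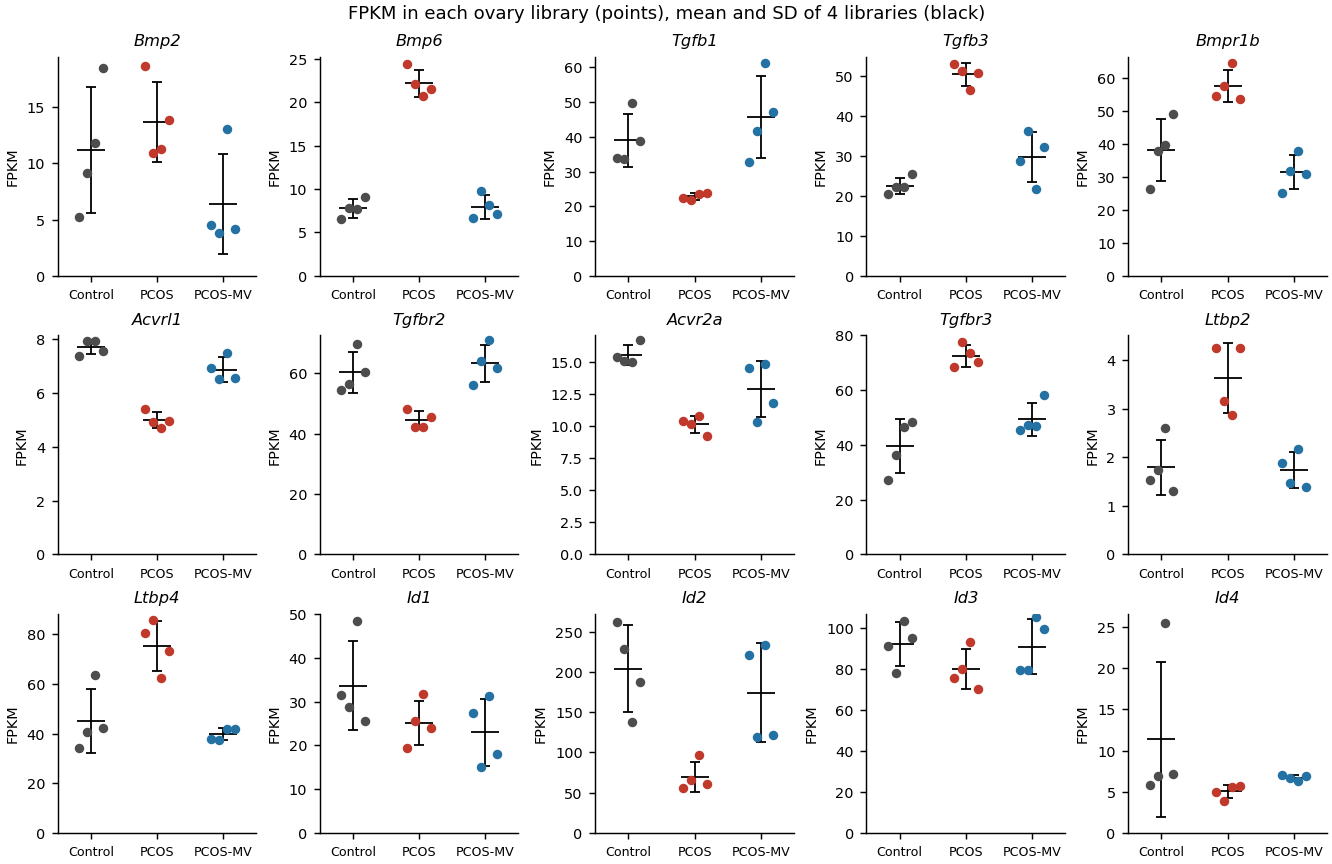
FPKM of 15 members in each ovary library (points), with the mean and SD of 4 libraries in black, on linear axes from 0 for the control (grey), PCOS (red) and PCOS-MV (blue) groups. The PCOS points stand clear above the others for Bmp6 and Tgfb3, clear below for Tgfb1, Tgfbr2, Acvrl1 and Id2, and among the others for Id1 and Id3.

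TGF-beta is secreted in a latent form that latent TGF-beta binding proteins (LTBPs) tether to the extracellular matrix. Of the 4 LTBP genes, 2 (50%) were called in both comparisons with the PCOS group. Of all genes, 27.4% were called for PCOS against control and 25.7% for PCOS-MV against PCOS. Ltbp4 (gene ENSRNOG00000020871, chromosome 1, 84118046 to 84150084, minus strand) measured 34.2, 40.8, 63.8 and 42.2 FPKM in the control libraries, 80.4, 85.7, 62.5 and 73.3 in the PCOS libraries and 38, 37.6, 42.1 and 41.8 in the PCOS-MV libraries. Control replicate 3 reached the level of PCOS replicate 3, the lowest of its group, whereas the PCOS-MV libraries were all below the PCOS libraries. Its log2 fold change was 0.75 ± 0.18 (SE, adjusted p = 0.016) for PCOS against control and -0.90 ± 0.10 (SE, adjusted p = 0.000684) for PCOS-MV against PCOS, and the exact permutation p of the first was 0.0571.

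Ltbp2 (gene ENSRNOG00000012094, chromosome 6, 108500112 to 108596569, minus strand), a microfibril protein that does not bind latent TGF-beta itself, was expressed at a far lower level. It measured 1.54, 1.73, 2.6 and 1.3 FPKM in the control libraries, 4.25, 3.16, 2.86 and 4.25 in the PCOS libraries and 1.89, 1.47, 2.18 and 1.4 in the PCOS-MV libraries, with every PCOS library above all others. For Ltbp2 the log2 fold change was 0.74 ± 0.17 (SE, adjusted p = 0.0123) for PCOS against control and -0.76 ± 0.14 (SE, adjusted p = 0.00623) for PCOS-MV against PCOS. Its promoter, shown above, held 3 CAGAC matches within the 150 bases before the start.

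Ltbp1 and Ltbp3, which bind the latent complex, did not pass. Ltbp1 measured 32.6 to 46.5 FPKM in controls, 45.1 to 55.6 in PCOS and 37.4 to 51.9 in PCOS-MV libraries, with a log2 fold change of 0.34 ± 0.12 (SE, adjusted p = 0.0612) for PCOS against control, which passed without control replicate 4 (adjusted p = 0.0272). Ltbp3 stayed between 35.5 and 46.1 FPKM in all libraries, with 95% intervals of the log2 fold change of -0.22 to 0.09 for PCOS against control and -0.15 to 0.25 for PCOS-MV against PCOS. Reads of Ltbp3 may have been shared with an overlapping gene, so its level is uncertain.

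Of the 7 type I receptors, 6 were tested. Bmpr1b and Acvrl1 were called in both comparisons, in opposite directions, 33.3% of those tested beside 27.4% and 25.7% of all genes. Bmpr1b (gene ENSRNOG00000016289, chromosome 2, 247403920 to 247446882, minus strand), a BMP receptor of granulosa cells in which a known variant raises the ovulation rate of sheep, measured 26.3, 37.9, 39.7 and 49.2 FPKM in the control libraries, 54.5, 57.7, 64.6 and 53.8 in the PCOS libraries and 25.3, 31.9, 37.9 and 31 in the PCOS-MV libraries. All PCOS libraries were above all others, but the control libraries spread widely, and control replicate 4 came near the PCOS range. The log2 fold change was 0.61 ± 0.17 (SE, adjusted p = 0.028) for PCOS against control and -0.86 ± 0.12 (SE, adjusted p = 0.00162) for PCOS-MV against PCOS. The first call ended when control replicate 2 or any PCOS replicate from 1 to 4 was left out (adjusted p 0.0503 to 0.0749), and the second held without any single library.

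Bmpr1a, the related receptor that many more tissues express, was not called. It measured 34.3 to 41.2 FPKM in controls, 40.2 to 43 in PCOS and 35.4 to 39.5 in PCOS-MV libraries, with log2 fold changes of 0.12 ± 0.073 (SE, adjusted p = 0.268) and -0.15 ± 0.061 (SE, adjusted p = 0.102). The ratio of Bmpr1b to Bmpr1a was 0.767 to 1.2 in the control libraries, 1.33 to 1.51 in the PCOS libraries and 0.665 to 1.07 in the PCOS-MV libraries. Bmpr1b thus had the higher FPKM of the pair in every PCOS library.

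Acvrl1 (gene ENSRNOG00000028713, chromosome 7, 142776252 to 142787335, plus strand) encodes ALK1, a type I receptor of endothelial cells for BMP9, BMP10 and TGF-beta. It measured 7.37, 7.92, 7.93 and 7.56 FPKM in the control libraries, 5.4, 4.93, 4.68 and 4.94 in the PCOS libraries and 6.9, 6.5, 7.49 and 6.53 in the PCOS-MV libraries. The 3 groups overlapped only between control and PCOS-MV, where PCOS-MV replicate 3 reached the control range. For Acvrl1 the log2 fold change was -0.54 ± 0.07 (SE, adjusted p = 0.000766) for PCOS against control and 0.39 ± 0.076 (SE, adjusted p = 0.00726) for PCOS-MV against PCOS. Eng, the coreceptor of ALK1 and no member, measured 42.5 to 58.6, 31.1 to 32.9 and 47.8 to 51.7 FPKM across controls, PCOS rats and PCOS-MV rats, with log2 fold changes of -0.67 ± 0.10 (SE, adjusted p = 0.00156) and 0.62 ± 0.058 (SE, adjusted p = 0.000269).

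Endothelial markers moved with Acvrl1. Of 8 markers listed, 7 were in the table, none of them at 0, and 6 were lower in the PCOS group while 3 were higher in the PCOS-MV than in the PCOS group. The markers called were 85.7% and 42.9% of those tested, beside 27.4% and 25.7% of all genes. Their summed level was 114 to 143 FPKM in the control libraries, 69 to 84.6 in the PCOS libraries and 95.7 to 139 in the PCOS-MV libraries. The part of the endothelial markers in the difference of Acvrl1 was not tested.

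The remaining type I receptors were not called. Acvr1, a receptor of several BMPs, measured 7.06 to 11.4, 8.56 to 10.4 and 8.67 to 10.2 FPKM in the libraries of control, PCOS and PCOS-MV rats, Acvr1b, an activin receptor, 5.54 to 8.95, 6.07 to 6.79 and 5.01 to 6.66 FPKM, and Tgfbr1, the TGF-beta type I receptor, 12.9 to 16, 14 to 17.5 and 14.2 to 17.4 FPKM. For Tgfbr1 the 95% interval of the log2 fold change was -0.19 to 0.26 for PCOS against control and -0.14 to 0.30 for PCOS-MV against PCOS. Acvr1b neighbours Acvrl1 on chromosome 7 and had log2 fold changes of -0.017 ± 0.13 (SE, adjusted p = 0.939) and -0.065 ± 0.095 (SE, adjusted p = 0.654).

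Acvr1c, which encodes ALK7, a receptor of adipocytes for nodal, activins and other ligands, was too low to test. It measured 0.722, 0.186, 0.861 and 0.59 FPKM in the control libraries, 0.0357, 0.147, 0.0376 and 0.0351 in the PCOS libraries and 0.108, 0.0297, 0.0889 and 0.0462 in the PCOS-MV libraries, about 4 to 109 fragments. All control libraries were above all others. The 5 adipocyte markers listed, all in the table, summed to 24.9 to 83.3 FPKM in the control libraries, 13.9 to 25.4 in the PCOS libraries and 10.6 to 17 in the PCOS-MV libraries. All 3 that could be tested (Adipoq, Cidec and Cfd) were lower in the PCOS group, beside 15.6% of all genes. Among the markers, Lep and Cidec were listed at 0 in PCOS replicates 1 and 3. Control replicate 2 had the lowest value of its group for both Acvr1c and the markers, and PCOS replicate 2 the highest of its group for both. The lowest PCOS library was replicate 4 for Acvr1c and replicate 1 for the markers. In the PCOS-MV group Acvr1c was highest in replicate 1 and lowest in replicate 2, and the markers were highest in replicate 3 and lowest in replicate 4. The part of adipose tissue in the Acvr1c values was not tested.

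Among the 4 type II receptors, Tgfbr2 and Acvr2a were lower in the PCOS group, 50% of those tested beside 27.4% of all genes called. Tgfbr2 (gene ENSRNOG00000013265, chromosome 8, 124312754 to 124399494, minus strand), the receptor that binds TGF-beta first, measured 54.4, 56.6, 69.5 and 60.5 FPKM in the control libraries, 48, 42.1, 42.3 and 45.7 in the PCOS libraries and 56.2, 64.1, 71.1 and 61.6 in the PCOS-MV libraries. The PCOS libraries were below all others, and the log2 fold change was -0.42 ± 0.091 (SE, adjusted p = 0.00928) against control and 0.49 ± 0.087 (SE, adjusted p = 0.00458) for PCOS-MV against PCOS. These were among the smallest differences called, at 1.35-fold and 1.42-fold in mean FPKM.

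Acvr2a (gene ENSRNOG00000005334, chromosome 3, 32947378 to 33034282, plus strand), a receptor shared by activins and several BMPs, measured 15.4, 15.1, 15 and 16.7 FPKM in the control libraries, 10.4, 10.2, 10.8 and 9.24 in the PCOS libraries and 14.6, 10.4, 14.8 and 11.8 in the PCOS-MV libraries. The control libraries lay close together and above all others. PCOS-MV replicates 1 and 3 came near the control level and replicates 2 and 4 near the PCOS level. The fall in the PCOS group was called (-0.57 ± 0.071 (SE, adjusted p = 0.00063)), and the PCOS-MV group was called neither against PCOS (0.31 ± 0.12 (SE, adjusted p = 0.0904)) nor against control (-0.27 ± 0.12 (SE, adjusted p = 0.586)). Without PCOS-MV replicate 2 it was called higher in PCOS-MV than in PCOS (adjusted p = 0.0312).

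Bmpr2, the main BMP type II receptor, measured 54.2 to 81.9, 56.5 to 65.1 and 41 to 73.5 FPKM in controls, PCOS and PCOS-MV, in this order. It was not called except as lower in PCOS-MV than in PCOS without PCOS-MV replicate 3 (adjusted p = 0.0141), and it overlaps a gene known only by a clone name on the opposite strand, so its level is uncertain. Acvr2b, a further activin receptor, measured 2.14 to 4.68, 1.86 to 2.64 and 2.13 to 2.73 FPKM and was not called.

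Tgfbr3 (gene ENSRNOG00000002093, chromosome 14, 3506339 to 3682545, plus strand) encodes betaglycan, a coreceptor that presents TGF-beta2 and is needed for inhibin to block activin receptors. It measured 27.2, 36.4, 46.3 and 48.4 FPKM in the control libraries, 68.6, 77.5, 73.7 and 70.1 in the PCOS libraries and 45.3, 47.2, 46.7 and 58.2 in the PCOS-MV libraries. All PCOS libraries were above all others, and PCOS-MV replicate 4 stood above the other 3 of its group. The log2 fold change was 0.89 ± 0.17 (SE, adjusted p = 0.00495) for PCOS against control, 1.83-fold in mean FPKM, and -0.55 ± 0.092 (SE, adjusted p = 0.00363) for PCOS-MV against PCOS. Its promoter held the GGCGCC match shown above.

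None of the 8 SMAD genes was called in any comparison by limma with all libraries. The share of all genes called was 27.4% for PCOS against control and 25.7% for PCOS-MV against PCOS. The lowest unadjusted limma p among the SMAD genes was 0.0139, for Smad7 in PCOS-MV against PCOS. Smad7, a target of the pathway that inhibits its receptors, measured 5.54, 5.99, 7.8 and 8.07 FPKM in the control libraries, 7.14, 10.2, 10.4 and 7.1 in the PCOS libraries and 5.35, 5.01, 7.35 and 5.98 in the PCOS-MV libraries. PCOS replicates 2 and 3 were the highest of all, the groups overlapped, and the log2 fold change was 0.30 ± 0.16 (SE, adjusted p = 0.204) for PCOS against control and -0.48 ± 0.16 (SE, adjusted p = 0.053) for PCOS-MV against PCOS. Smad7 lay at the threshold, and it was called lower in PCOS-MV than in PCOS without PCOS replicate 1 (adjusted p = 0.0475) or PCOS-MV replicate 3 (adjusted p = 0.0302), with a replicate block (adjusted p = 0.0483) and in 1 model for all libraries (adjusted p = 0.0461).

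The receptor-regulated SMADs of the BMP branch had narrow ranges. Smad1 measured 14 to 18.1, 14.5 to 16.1 and 14.8 to 16.2 FPKM across controls, PCOS rats and PCOS-MV rats, and Smad5 measured 22.8 to 27.6, 24.5 to 26.4 and 21.8 to 24.9 FPKM. The 95% interval of the log2 fold change for PCOS against control was -0.26 to 0.13 for Smad1 and -0.21 to 0.15 for Smad5. Smad9 was low, at 1.2 to 2.42 FPKM in 11 libraries, and was listed at 0 in PCOS replicate 3. The other libraries held about 216 to 504 fragments of Smad9, and the single 0 was not read as an absence of its RNA.

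In the TGF-beta and activin branch, Smad2 measured 15.7 to 23.7, 14.7 to 21.6 and 16.9 to 24.3 FPKM and Smad3 15.6 to 24.4, 20.7 to 23.3 and 16.2 to 24.2 FPKM in the libraries of control, PCOS and PCOS-MV rats. Smad2 was called higher in PCOS-MV than in PCOS without PCOS-MV replicate 3, at an adjusted p of 0.05 after rounding. Smad4, the partner common to both branches, measured 12.7 to 17.9, 15.3 to 17.2 and 14.9 to 16.2 FPKM, with 95% intervals of -0.21 to 0.28 for PCOS against control and -0.21 to 0.08 for PCOS-MV against PCOS. Smad6, the inhibitor of BMP signaling, measured 6.04 to 10.4, 7.19 to 9.94 and 6.24 to 8.42 FPKM, with log2 fold changes of 0.08 ± 0.17 (SE, adjusted p = 0.759) and -0.16 ± 0.12 (SE, adjusted p = 0.379). RNA levels carry no information on the phosphorylation of these proteins.

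The secreted antagonists among the members, which trap BMPs outside the cell, had means under 1 FPKM and were not tested. Nog (noggin) measured 0.312, 0.548, 0.634 and 0.77 FPKM in the control libraries, 0.0609, 0.24, 0.0315 and 0.085 in the PCOS libraries and 0.12, 0.313, 0.191 and 0.256 in the PCOS-MV libraries, about 1.6 to 41.5 fragments. The control group was highest on the whole, and control replicate 1 was within the PCOS-MV range. Chrd (chordin) ranged from 0.389 to 2 FPKM and Grem1 (gremlin 1) from 0.106 to 1.11 FPKM over the 12 libraries, with overlapping groups.

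The ID genes, which encode helix-loop-helix proteins without a DNA-binding domain and are the usual readout of BMP signaling, differed in the size of their change. For PCOS against control all 4 log2 fold changes were negative (-0.38 for Id1, -1.53 for Id2, -0.20 for Id3 and -0.80 for Id4), and only that of Id2 was called. For PCOS-MV against PCOS they were -0.16 for Id1, 1.27 for Id2, 0.18 for Id3 and 0.36 for Id4. Id2 (gene ENSRNOG00000007237, chromosome 6, 44348501 to 44363915, minus strand) measured 262, 229, 137 and 188 FPKM in the control libraries, 56.2, 65.7, 96.2 and 60.3 in the PCOS libraries and 220.4, 119.5, 234 and 122 in the PCOS-MV libraries. Every PCOS library was below every other library, and the control and PCOS-MV libraries overlapped. The mean fell 2.93-fold in the PCOS group, with a log2 fold change of -1.53 ± 0.23 (SE, adjusted p = 0.00151), the largest fall among the members tested. In the PCOS-MV group it was 2.5-fold that of the PCOS group, with a log2 fold change of 1.27 ± 0.27 (SE, adjusted p = 0.01).

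Id1 measured 31.6, 28.8, 48.4 and 25.6 FPKM in the control libraries, 19.3, 25.6, 31.7 and 23.9 in the PCOS libraries and 27.4, 15.2, 31.4 and 18 in the PCOS-MV libraries. Id3 measured 91.4, 78, 104 and 95.2, 75.8, 80.1, 93.5 and 70.4 and 79.6, 79.3, 105 and 99.7 FPKM in the same order. For both genes the groups overlapped and no comparison passed. The log2 fold change for PCOS against control had a 95% interval of -0.86 to 0.089 for Id1 and -0.46 to 0.058 for Id3, beside -2.05 to -1.01 for Id2. The ratio of Id2 to Id1 was 2.84 to 8.29 in the control libraries, 2.52 to 3.03 in the PCOS libraries and 6.79 to 8.03 in the PCOS-MV libraries, control replicate 3 being the control library within the PCOS range.

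Id4 (gene ENSRNOG00000016099, chromosome 17, 16692557 to 16695126, minus strand) measured 5.88, 6.96, 25.5 and 7.15 FPKM in the control libraries, 4.96, 3.92, 5.64 and 5.65 in the PCOS libraries and 7.05, 6.63, 6.27 and 6.9 in the PCOS-MV libraries. Control replicate 3 stood far above all others, and the PCOS libraries were the lowest. The log2 fold change was 0.36 ± 0.11 (SE, adjusted p = 0.0398) for PCOS-MV against PCOS and -0.80 ± 0.39 (SE, adjusted p = 0.166) for PCOS against control, where control replicate 3 widened the spread. The PCOS-MV and PCOS libraries did not overlap, but the call rested on a narrow margin: it ended when PCOS replicate 1 or 2 or PCOS-MV replicate 1, 2 or 4 was left out (adjusted p 0.0711 to 0.0841) and when all 12 libraries shared a single estimate of the spread (adjusted p 0.474).

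Control replicate 3 also stood apart in markers of the oviduct, the surface epithelium and smooth muscle. Its 5 ciliated oviduct markers in the table, of 7 listed, summed to 25.7 FPKM, beside 3.14 to 5.76 in the other controls and 2.28 to 4.54 in the PCOS and PCOS-MV libraries. Its 6 surface epithelium markers summed to 185 FPKM, beside 22.8 to 35.9 in the other controls, 5.9 to 40.4 in PCOS and 24.6 to 80.7 in PCOS-MV libraries. The 7 smooth muscle markers summed to 1004 FPKM there, beside 364 to 531 in the other controls, 491 to 621 in PCOS and 361 to 740 in PCOS-MV libraries. Without control replicate 3, the calls of PCOS against control still counted 6 members higher and 5 lower, and each of the 11 members called kept its call. The part of these tissues in the Id4 value was not tested.

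**Figure D4:**
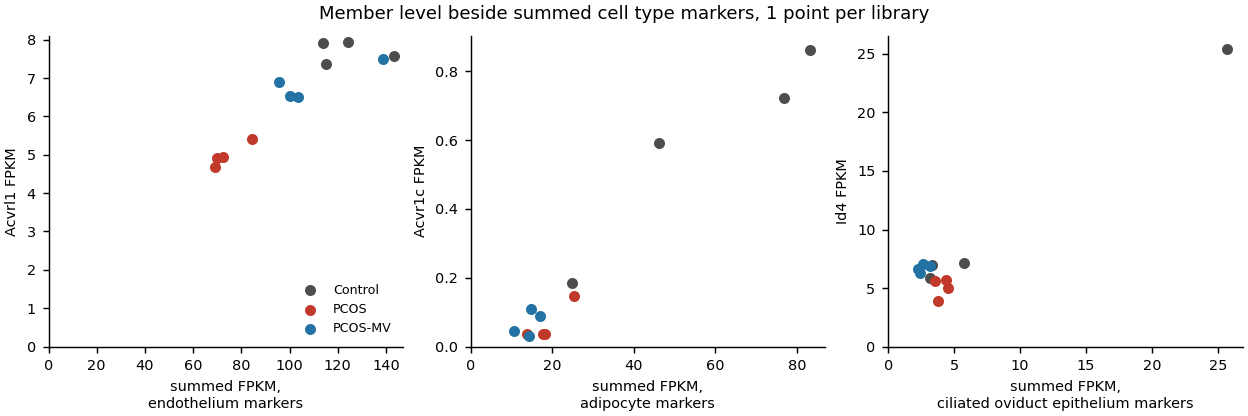
FPKM of a member (vertical axis) against the summed FPKM of a marker list (horizontal axis) in the 12 libraries, for Acvrl1 and endothelium (left), Acvr1c and adipocytes (middle) and Id4 and ciliated oviduct epithelium (right), control grey, PCOS red and PCOS-MV blue. The PCOS libraries sit lowest on both axes on the left, 3 control libraries sit apart in the middle, and control replicate 3 sits alone at 25.7 and 25.5 FPKM on the right.

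Between the PCOS-MV and control groups, no member passed at an adjusted p under 0.05 in limma, and the lowest adjusted p was 0.459, for Tgfb2. At an unadjusted p under 0.05, 2 members passed, Tgfb2 and Tgfb3, beside 8.50% of all genes, and 1 gene of the 13430 (0.00745%) was called. The groups did not overlap for 2 members, Tgfb2 and Acvr2a, both lower in the PCOS-MV group, which was 5.71% of the members beside 5.10% of all genes. These results do not show that the groups were alike. The 95% interval of the log2 fold change was -0.28 to 0.32 for Bmp6, 0.024 to 0.71 for Tgfb3, -0.25 to 0.66 for Tgfb1, -0.69 to 0.19 for Bmpr1b and -0.92 to 0.40 for Id2.

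The members varied more within the control group than within the PCOS group. The median coefficient of variation of the 35 members was 19% in the control group, 8.54% in the PCOS group and 15% in the PCOS-MV group, beside 14.1%, 10.6% and 13.9% for all genes tested. The median of the absolute log2 fold change of the members was 0.33 for PCOS against control, 0.30 for PCOS-MV against PCOS and 0.14 for PCOS-MV against control, beside 0.221, 0.205 and 0.12 for all genes. Their median signed change was -0.061, -0.065 and -0.080, beside -0.0328, 0.0254 and -0.00375 for all genes.

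A further 91 genes of the pathways were listed by role (other ligands, coreceptors, antagonists, proteins that release latent ligand, SMAD cofactors, and BMP- and TGF-beta-responsive genes). Of these, 89 were in the table and 63 could be tested. In the PCOS group 6 were higher and 15 lower than in the control group, 33.3% of those tested beside 27.4% of all genes, and in the PCOS-MV group 11 were higher and 9 lower than in the PCOS group, 31.7% beside 25.7%. Both shares were near those of the transcriptome. None was called between PCOS-MV and control by limma, where 5 of the 63 had an unadjusted p under 0.05, beside 8.50% of all genes.

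The responsive genes held the largest falls in the PCOS group. Of the 6 BMP-responsive genes tested, 3 were lower in the PCOS group (Runx2, Atoh8 and Hey1) and none higher, with 2 higher in PCOS-MV than in PCOS (Runx2 and Atoh8). These calls were 50% and 33.3% of the genes tested, beside 27.4% and 25.7% of all genes. Leaving out any library except control replicate 1 ended the call of Hey1 (control replicates 2 to 4 and PCOS replicates 1 to 4, adjusted p 0.066 to 0.113), and without PCOS-MV replicate 1 Hey1 was also called for PCOS-MV against PCOS (adjusted p = 0.0166). Runx2, a transcription factor of bone that granulosa cells switch on at luteinization, measured 56.3, 45, 28.7 and 40.2 FPKM in the control libraries, 5.88, 5.44, 10.3 and 5.68 in the PCOS libraries and 55, 34.1, 52.8 and 30.8 in the PCOS-MV libraries. Every PCOS library was below all others, with log2 fold changes of -2.48 ± 0.24 (SE, adjusted p = 0.000147) for PCOS against control and 2.49 ± 0.24 (SE, adjusted p = 0.000338) for PCOS-MV against PCOS.

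Of the 11 TGF-beta-responsive genes tested, 5 were lower in the PCOS group (Fn1, Postn, Ccn2, Cdkn1a and Col1a1) and 1 was higher (Tgfbi), and 3 were higher (Fn1, Cdkn1a and Cdkn2b) and 1 lower (Tgfbi) in PCOS-MV than in PCOS. These calls were 54.5% and 36.4% of the genes tested, beside 27.4% and 25.7% of all genes. Fn1, which encodes fibronectin, measured 42.9, 38.8, 34 and 30.2 FPKM in the control libraries, 11.1, 14.2, 8.3 and 10.7 in the PCOS libraries and 30.6, 23.1, 26.9 and 28.4 in the PCOS-MV libraries, with the PCOS libraries below all others and log2 fold changes of -1.64 ± 0.16 (SE, adjusted p = 0.000168) and 1.24 ± 0.15 (SE, adjusted p = 0.000819). Cdkn1a, which encodes the cell cycle inhibitor p21, ranged over 27.1 to 63.9, 17.9 to 26 and 44.7 to 125 FPKM in controls, PCOS and PCOS-MV, in this order, and rose in PCOS-MV against PCOS by 1.75 ± 0.28 on the log2 scale (SE, adjusted p = 0.00313). Cdkn2b, which encodes the inhibitor p15, measured 4.08, 5.4, 63.2 and 69.4, 8.62, 0.586, 2.52 and 1.05 and 33.1, 5.93, 130.2 and 53.1 FPKM in the 3 groups, and its PCOS and PCOS-MV libraries overlapped although it was called (3.47 ± 0.89 (SE, adjusted p = 0.0219)). That call ended without PCOS replicate 2, 3 or 4 or PCOS-MV replicate 4 (adjusted p 0.0508 to 0.0632), and without control replicate 1 the lower level in PCOS than in control was called too (adjusted p = 0.0399). The calls of Col1a1 and Tgfbi for PCOS against control were as narrow, the first ending without any library but control replicate 4 (control replicates 1 to 3 and PCOS replicates 1 to 4, adjusted p 0.0551 to 0.0955) and the second without PCOS replicate 2 or 4 (adjusted p 0.0551 and 0.0569). Without PCOS-MV replicate 3, Col1a1 was called higher in PCOS-MV than in PCOS (adjusted p = 0.00306).

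The matrix genes among them were less even. Ccn2, which encodes connective tissue growth factor, measured 31.1, 71.8, 73.3 and 93.7 FPKM in the control libraries, 34.5, 25.1, 23.6 and 29.1 in the PCOS libraries and 21.8, 17.7, 45.6 and 17.1 in the PCOS-MV libraries, was lower in the PCOS group (-1.15 ± 0.31 (SE, adjusted p = 0.0238)) and was not called after MV (-0.23 ± 0.29 (SE, adjusted p = 0.592)). The first call ended without control replicate 2 or 4 or PCOS replicate 2, 3 or 4 (adjusted p 0.0539 to 0.0647), and without PCOS-MV replicate 3 Ccn2 was called lower in PCOS-MV than in PCOS, with a log2 fold change of -0.54 (adjusted p = 0.0315). Postn, which encodes periostin, measured 4.68, 2.51, 16.8 and 2.53, 1.32, 1.33, 0.754 and 1.13 and 3.2, 1.43, 0.636 and 0.933 FPKM, and its call for PCOS against control (-1.49 ± 0.47 (SE, adjusted p = 0.0472)) included the high value of control replicate 3. Without that library the log2 fold change of Postn was -0.96 (adjusted p = 0.00891), and the call ended without control replicate 1 or any PCOS replicate from 1 to 4 (adjusted p 0.0779 to 0.11).

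Among the other ligands, Lefty2 and Gdf1 stood out. Lefty2, which encodes an inhibitor of nodal signaling, measured 0.0143, 0.323, 16.4 and 0.434 FPKM in the control libraries, 11.2, 15.3, 6.5 and 18.8 in the PCOS libraries and 0.169, 0, 0 and 0.0178 in the PCOS-MV libraries. It was at 6.5 FPKM or more in every PCOS library and in control replicate 3, and at 0.434 or less elsewhere. Only the high libraries brought its mean to the 1 FPKM needed for testing, so its p-values are no separate evidence of a difference. The log2 fold change was -3.65 ± 0.27 (SE, adjusted p = 0.00011) for PCOS-MV against PCOS, and PCOS against control did not pass (2.45 ± 0.84 (SE, adjusted p = 0.0611)). Without control replicate 3, Lefty2 was called higher in the PCOS group, with a log2 fold change of 3.40 (adjusted p = 0.000206). Its relative Lefty1 was too low to test and was named after its values were seen: it measured 1.37, 1.34, 0.859 and 2.02 FPKM in the PCOS libraries, 0.0192 in control replicate 4 and 0 in the other 7 libraries.

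Gdf1, which encodes a partner ligand of nodal, measured 2.87, 2.41, 2.43 and 2.31 FPKM in the control libraries, 16.7, 10.5, 8.59 and 12.3 in the PCOS libraries and 3.33, 3.86, 2.5 and 3.34 in the PCOS-MV libraries. The PCOS libraries were above all others, with log2 fold changes of 1.86 ± 0.17 (SE, adjusted p = 0.000131) and -1.59 ± 0.19 (SE, adjusted p = 0.00075). Gdf1 shares its locus and strand with Cers1, listed at 0.105 to 0.46 FPKM, so the assignment of its reads is uncertain. Pcsk6, a protease that cleaves BMP, nodal and lefty precursors, measured 5.96 to 8.19, 16.3 to 17.2 and 5.41 to 12.3 FPKM in the 3 groups, with log2 fold changes of 1.12 ± 0.10 (SE, adjusted p = 0.000104) and -0.89 ± 0.23 (SE, adjusted p = 0.0219), the second of which ended without PCOS replicate 2, 3 or 4 (adjusted p 0.0527 to 0.0567).

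**Figure D5:**
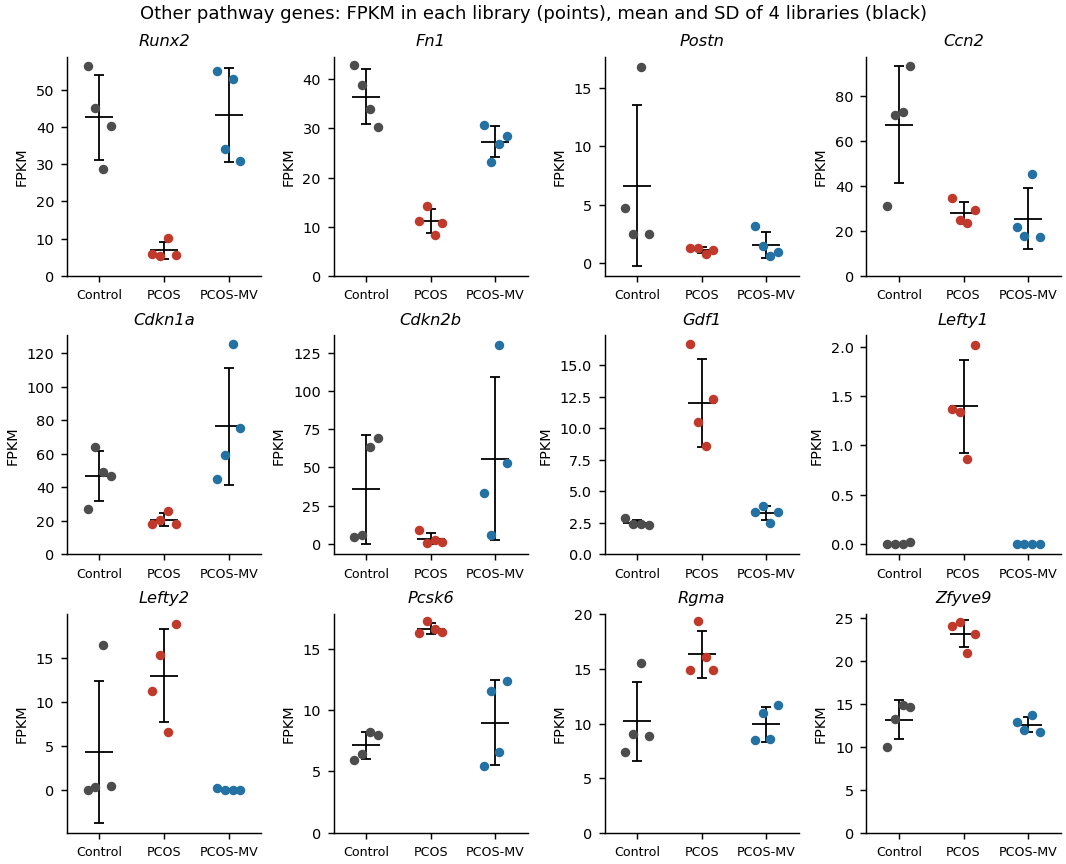
FPKM of 12 further pathway genes in each ovary library (points), with the mean and SD of 4 libraries in black, control grey, PCOS red and PCOS-MV blue. Runx2 and Fn1 are lowest in the PCOS libraries, Gdf1, Lefty1, Pcsk6 and Zfyve9 are highest there, and control replicate 3 is the high control point for Lefty2 (16.4 FPKM) and Postn (16.8 FPKM).

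Rgma, which encodes a BMP coreceptor of the repulsive guidance molecule family, measured 7.4, 9.02, 15.5 and 8.85 FPKM in the control libraries, 14.9, 19.4, 16.1 and 14.9 in the PCOS libraries and 8.54, 10.9, 8.64 and 11.7 in the PCOS-MV libraries, with log2 fold changes of 0.67 ± 0.20 (SE, adjusted p = 0.0354) and -0.67 ± 0.13 (SE, adjusted p = 0.0064). Control replicate 3 was within the PCOS range and the other controls were below it. The first call ended without any library but control replicate 3 (control replicates 1, 2 and 4 and PCOS replicates 1 to 4, adjusted p 0.0575 to 0.0937), and without control replicate 3 the log2 fold change of Rgma was 0.88 (adjusted p = 0.00112). Outside the cell, Thbs1 and Lrrc32, named after their values were seen, encode thrombospondin 1 and GARP, which release or hold latent TGF-beta. Thbs1 ranged over 99.9 to 119, 51.4 to 67 and 96.7 to 141 FPKM across controls, PCOS rats and PCOS-MV rats and Lrrc32 over 5.03 to 6.59, 2.3 to 2.61 and 4.39 to 5.99 FPKM, each with the PCOS libraries below all others. Zfyve9, which encodes SARA, the anchor that presents SMAD2 and SMAD3 to the receptor, measured 9.99 to 14.9, 21 to 24.6 and 11.8 to 13.7 FPKM, with log2 fold changes of 0.78 ± 0.12 (SE, adjusted p = 0.00202) and -0.83 ± 0.078 (SE, adjusted p = 0.000288).

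Markers of granulosa and of theca and interstitial cells also differed between the groups, although not all in 1 direction. All 8 granulosa markers were in the table and summed to 656 to 915 FPKM in the control libraries, 1097 to 1557 in the PCOS libraries and 615 to 1124 in the PCOS-MV libraries, a sum made up mostly of Inha and Inhba. In the PCOS group 4 were higher (Fshr, Cyp19a1, Inha and Inhba), of which Fshr, Cyp19a1 and Inha were lower after MV, while Amh and Nr5a2 had log2 fold changes of -0.81 and -0.77 for PCOS against control that did not pass (adjusted p 0.0738 and 0.101). The 5 theca and interstitial markers, of which Cyp17a1 and Insl3 carried most of the rise, summed to 114 to 154 FPKM in the control libraries, 1695 to 3182 in the PCOS libraries and 108 to 195 in the PCOS-MV libraries. Of these, Cyp17a1, Insl3 and Nr2f2 were higher and Ptch1 lower in the PCOS group (log2 fold change of Ptch1 -0.43, adjusted p = 0.0293), while Hhip did not pass. For PCOS against control, 50% of the granulosa and 80% of the theca and interstitial markers were called, beside 27.4% of all genes. The 7 oocyte markers in the table, of 8 listed, summed to 14.2 to 26.6 FPKM over all libraries. Of the 5 that could be tested, none was called for PCOS against control, beside 27.4% of all genes. Of the 4 luteal markers listed, 3 were in the table. Ptgfr was lower in the PCOS group (log2 fold change -2.07, adjusted p = 0.00683) and higher after MV (1.975, adjusted p = 0.00859). Lhcgr went the other way (1.39, adjusted p = 0.0104, and -1.89, adjusted p = 0.0269), and Prlr did not pass. In the PCOS group the stroma markers Pdgfra and Tcf21 were higher, Lum and Col1a1 lower, and Dcn did not pass. These lists had 66.7% and 80% called, beside 27.4% of all genes. The part of these markers in the differences of the ligands, receptors and ID genes was not tested.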

How the data were processed

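The authors deposited FPKM values per gene for 12 ovary libraries, repeated on 26928 transcript lines, and 1 line was kept for each of 19730 genes. The paper names HISAT2 2.0.5 and featureCounts, whereas the submitters' processing notes name STAR 2.5.1b and HTSeq 0.6.0, and the genome build is not given in the sources used here. The library kit is not described as strand-specific. The deposited fold changes and p-values of the authors' own DESeq2 1.16.1 comparisons were not used. Columns of the mogroside group were matched to PCOS-MV samples by their abbreviation and number. No 2 libraries held identical values.

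Counts had been foreseen as an option, but the table held only FPKM, so log2(FPKM + 1) was tested with limma 3.58.1 in R 4.3.3 (lmFit, eBayes with trend), comparing 4 libraries with 4, without covariates, in the 13430 genes whose mean reached 1 FPKM. P-values were adjusted over all of these by the Benjamini-Hochberg method. For single members, an exact permutation test (two-sided) was added, and its smallest possible p is 0.0286. In simulated data (10 sets of 13430 genes with 200 changed by 1.5 on the log2 scale and the spread of the PCOS libraries), 95.4% of the changed genes were recovered and 5.40% of the calls were false. The PCOS libraries had the smallest spread (median coefficient of variation 10.6%, beside 14.1% in control and 13.9% in PCOS-MV libraries). A change of 1.5 also lies far above the median absolute change of the members (0.33 and 0.30), so recovery of smaller changes was not measured. FPKM summed to 339830 to 373758 per library. Between 28.7% and 32.7% of low values of genes with 1 transcript lay within 5% of a step, beside 10% by chance, so the depth from steps is an estimate, and fragment numbers cover counting only.

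The members, the further pathway lists and the marker lists were chosen with earlier results of these data known, and 1 gene is not reported here. Members called in either comparison with the PCOS group were given by library, and of the further pathway genes the 4 largest rises and falls called per comparison were named. Eng, Thbs1, Lrrc32, Lefty1 and further called genes of the lists were named after their values were seen. Promoters were taken from RefSeq (GRCr8). The alternatives were pseudocounts of 0.1 and 0.5, a minimum mean of 0.1 FPKM or none, 1 model for all libraries, a replicate block, rescaling by median ratios, a 2-fold threshold, and leaving out each library. Python 3.11.15 and pandas 2.3.3 were used for tables.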

Additional observations from a re-analysis of the deposited data

Results flagged for a closer look

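Single libraries stood far from the other 3 of their group by Dixon's test in 11 of 153 groups of 4 values examined, beside about 7.65 expected by chance at 1 in 20. No explanation was weighed for any of them.

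Among the members, Bmp2 measured 13.1 FPKM in PCOS-MV replicate 3, beside 3.82 to 4.5 in the other 3 libraries. Tgfbr3 measured 58.2 FPKM in PCOS-MV replicate 4, beside 45.3 to 47.2. Ltbp3 measured 46.1 FPKM in PCOS-MV replicate 1, beside 36.8 to 37.9. Tgfbr1 measured 12.9 FPKM in control replicate 1, below the 15.6 to 16 of the other controls. Id4 measured 25.5 FPKM in control replicate 3, beside 5.88 to 7.15. Acvr1c measured 0.147 FPKM in PCOS replicate 2, beside 0.0351 to 0.0376, all near the limit of the measurement.

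Among the further pathway genes, control replicate 3 was apart for Lefty2, at 16.4 FPKM beside 0.0143 to 0.434, and for Postn, at 16.8 FPKM beside 2.51 to 4.68. Lefty2 also measured 0.169 FPKM in PCOS-MV replicate 1, beside 0 to 0.0178. Runx2 measured 10.3 FPKM in PCOS replicate 3, beside 5.44 to 5.88. Ccn2 measured 45.6 FPKM in PCOS-MV replicate 3, beside 17.1 to 21.8, the library that was also apart for Bmp2. The granulosa markers of PCOS-MV replicate 3 summed to 1124 FPKM, beside 615 to 839 in the others of its group. Inhba measured 246 FPKM there, beside 31.3 to 89.3, and Cyp19a1 31.2, beside 2.02 to 7.7. Nr5a2 was lowest there, at 19.5 beside 33.6 to 52.6, and Foxl2 and Fshr lay within the range of the others. The stroma markers summed to 459 FPKM in this library, beside 668 to 808. The part of these markers in the Bmp2 and Ccn2 values was not tested.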

How the results depend on the processing

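No log2 fold change of a called member changed sign under any alternative. With a 2-fold threshold added, the members called fell to 2 higher (Bmp6 and Tgfb3) and 1 lower (Id2) for PCOS against control, and to 1 higher (Id2) and 2 lower (Bmp6 and Bmp2) for PCOS-MV against PCOS. Leaving out single libraries gave 5 to 7 members higher and 5 to 6 lower for PCOS against control, 4 to 6 higher and 6 to 10 lower for PCOS-MV against PCOS, and 0 in both directions for PCOS-MV against control. Of the 23 calls, 23 held at both other pseudocounts, 22 at a minimum of 0.1 FPKM and after rescaling by median ratios, and 21 without a filter and in 1 model for all libraries; those lost were Bmp2 and Id4, for PCOS-MV against PCOS. Members gained for PCOS against control were Acvr1c and Nog with the lower minimum or none (adjusted p 0.0127 to 0.0248), Tgfb2 in 1 model (0.0475) and Ltbp1 after rescaling (0.0254), and for PCOS-MV against PCOS Smad7 in 1 model (0.0461). Rescaling moved the median log2 fold change of all genes by less than 0.1.

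The replicate numbers were not taken to pair the rats. Correlations of same-numbered libraries were -0.0327 to 0.0236 for PCOS against control. For PCOS-MV against PCOS they were 0.101, 0.172 and 0.136 for replicates 1 to 3, each of which correlated best with its own number, and 0.0353 for replicate 4, which did not, so a partial pairing remains possible there. For PCOS-MV against control, the correlation was 0.216 for replicate 1, which matched its own number best. It was -0.0534 to 0.082 for the other replicates, which did not, and a partial pairing was not excluded there either. With a replicate block, 4 members were higher and 5 lower for PCOS against control (Ltbp2 and Ltbp4 at adjusted p 0.0533 and 0.0537), 4 higher and 7 lower for PCOS-MV against PCOS (Bmp2 and Id4 lost at 0.0646 and 0.0652, Smad7 gained at 0.0483), and 0 for PCOS-MV against control. With 4 libraries a group and FPKM only, small changes of low genes could not be resolved.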
